A study of Rattus norvegicus with 12 samples.

Results

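The cadherin and protocadherin genes of rat PAC1 cells were taken as every gene of the count table whose symbol is Cdh followed by a number or begins with Pcdh, a choice made by name and not by level. This gave 71 of 33294 genes. They comprise 23 Cdh genes, 12 protocadherins that stand alone in the genome, and the clustered protocadherins, of which the table lists 2 alpha, 19 beta and 15 gamma genes. PAC1 is a smooth muscle line derived from rat pulmonary artery, and RNA-seq was done on 12 poly(A)-selected libraries in 4 groups of 3. All groups were the same cell line, and the labels name no other modification. They differed in the siRNA, which was the control C2 or one against RBPMS, RBFOX2 or QKI, and the knockdown groups are called RBPMS-KD, RBFOX2-KD and QKI-KD. Per the labels it was given as 90 pmol and again after 24 h, with harvest 48 h later. The study's own account gives longer times, and which applies is not known. RBPMS, RBFOX2 and QKI are RNA-binding proteins that regulate splicing, and QKI is listed as Qk.

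Cadherins are calcium-dependent adhesion proteins. Classical cadherins bind the same cadherin on the neighbouring cell, and their cytoplasmic tails hold p120-catenin and beta-catenin, which through alpha-catenin connects the junction to actin. In the artery wall, smooth muscle cells are joined mainly by N-cadherin and also carry T-cadherin, which has no cytoplasmic tail and is held in the membrane by a lipid anchor. Protocadherins share the extracellular repeats but lack the catenin-binding tail, and are best known in the nervous system. The clustered ones lie in tandem in the genome. In the alpha and gamma clusters each variable first exon has its own promoter and is spliced to constant exons shared by the cluster, while each beta gene is a single coding exon with a promoter of its own.

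Library totals lay between 111 and 152 M counts. The siRNA targets were low in the libraries so labelled, with log2 fold changes of −2.50 for Rbpms, −2.05 for Rbfox2 and −3.13 for Qk in their own knockdowns. They also moved in the other knockdowns. Rbpms had −0.81 in RBFOX2-KD and −0.49 in QKI-KD, and Qk had −0.42 in RBFOX2-KD and 0.18 in RBPMS-KD. Rbfox2 had −0.12 in RBPMS-KD and −0.15 in QKI-KD. The part of these shifts in the values below was not tested. All 10 smooth muscle markers examined were at 1 CPM or more, and their summed level was 2168 to 2236 CPM in control, 1106 to 1215 CPM in RBPMS-KD, 867 to 966 CPM in RBFOX2-KD and 1467 to 1557 CPM in QKI-KD. Single markers went both ways past the adjusted p, with 3 higher and 7 lower in RBPMS-KD, 2 and 6 in RBFOX2-KD and 3 and 6 in QKI-KD. By that test 30.4% of all tested genes were higher and 29.0% lower in RBPMS-KD, 30.1% and 30.1% in RBFOX2-KD and 32.9% and 34.0% in QKI-KD. Library RBPMS-KD 2 stood apart from its replicates, with a chi-square per degree of freedom of 57.8 and 45.6 against them, where the other pairs within groups gave 4.64 to 21.5. Without it, 4 cadherin and protocadherin genes changed in RBPMS-KD and 23 passed the adjusted p, against 4 and 25 with it. In bulk RNA, fewer cells with a transcript and less of it per cell cannot be told apart. The study describes its replicates as independent biological ones, while the labels do not say how they were separated.

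Of the 71 genes, 29 were expressed at a mean of 1 CPM or more, where CPM is the count divided by the library total and multiplied by 1000000. These were 8 Cdh genes, 7 protocadherins outside the clusters, 1 alpha, 8 beta and 5 gamma genes. Cdh13 led at a mean of 182 CPM, followed by Cdh11 at 116, Pcdhgc3 at 109, Cdh3 at 78.3, Pcdh7 at 77.8, Cdh24 at 57.3, Cdh2 at 52.7 and Pcdh1 at 48.1 CPM. The rest of the 29 lay between 1.03 and 17.3 CPM, and 11 of them were under 2 CPM. Pcdhga1 at 1.03 CPM was the lowest gene inside the limit, and Cdh15, M-cadherin of skeletal muscle, was the highest outside it at 0.595 CPM. No transcript lengths were used, so the order of CPM is not an order of transcript number. Of the 42 genes under 1 CPM, 27 had enough counts to be tested. The other 15 reached at most 13 counts in any library and are not described further, so that 56 of the 71 genes entered the test. The levels that follow are CPM scaled to the TMM-adjusted library total.

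**Figure D1:**
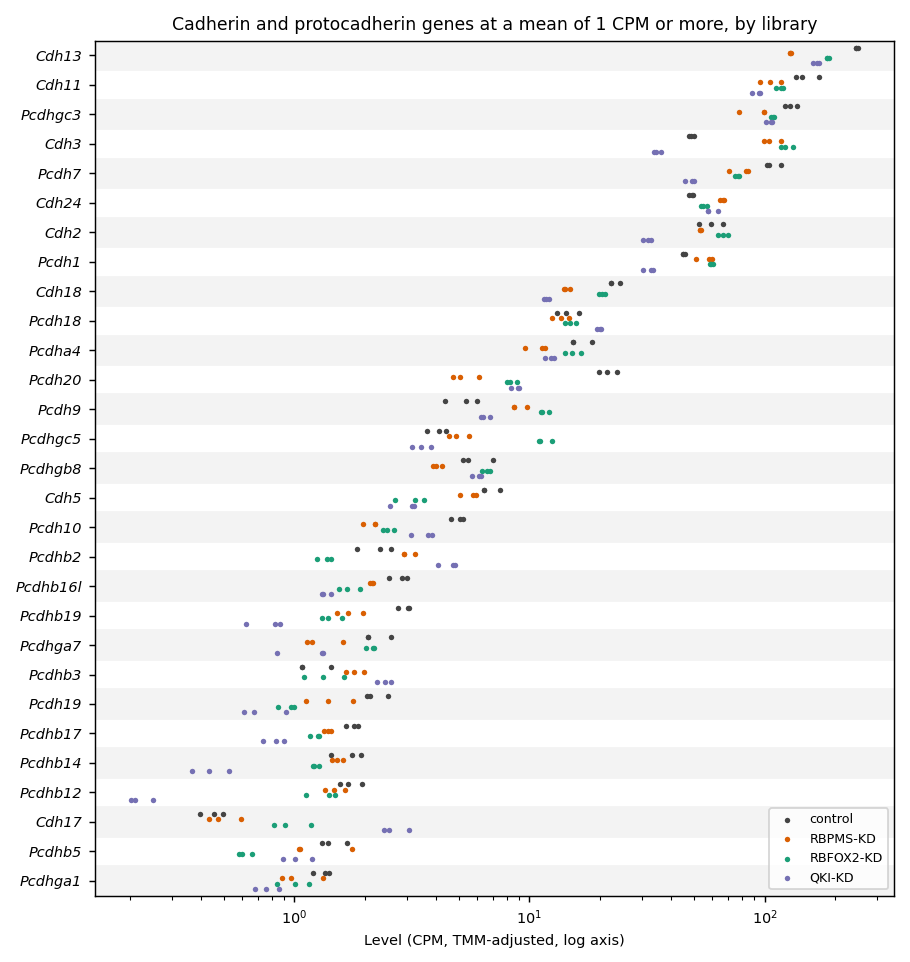
Level of each of the 29 cadherin and protocadherin genes at a mean of 1 CPM or more (CPM scaled to the TMM-adjusted total, log axis), with 1 point per library and a colour per group. Cdh13, Cdh11 and Pcdhgc3 sit at the top, and the QKI-KD libraries lie apart to the right for Cdh17 and to the left for Pcdhb12 and Pcdhb14.

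The total of all 71 genes was 968 ± 47.4 CPM (SD, n = 3) in control, 784 ± 49.8 CPM in RBPMS-KD, 909 ± 14.8 CPM in RBFOX2-KD and 668 ± 8.57 CPM in QKI-KD. The 3 QKI libraries summed to 661 to 678 CPM, below every other library, whose lowest sum was 729 CPM. The Cdh genes gave most of the total, with 586 ± 24.8 CPM in control and 405 ± 9.27 CPM in QKI-KD. The gamma genes summed to 145 ± 9.72 CPM in control and 105 ± 13.6 CPM in RBPMS-KD, and the beta genes to 18.8 ± 1.39 CPM in control and 12.6 ± 0.558 CPM in RBFOX2-KD.

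Changed, as used here, means past 2 thresholds in edgeR's quasi-likelihood test, a Benjamini-Hochberg adjusted p below 0.05 over 18438 genes and a log2 fold change (log2FC) beyond 1 in either direction. By this rule 4 of the 56 genes changed in RBPMS-KD, 1 higher and 3 lower, where 9.66% of all tested genes did, 5.16% higher and 4.50% lower. In RBFOX2-KD 17 of 56 changed, 10 higher and 7 lower, against 11.7% of all genes, 6.96% higher and 4.73% lower. With limma on log2(normalised signal + 1) from the authors' quantile-normalised table, that split was 4 higher and 8 lower. That table holds 22320 of the 33294 genes, and why the split differed was not tested. In QKI-KD 24 of 56 changed, 5 higher and 19 lower, against 17.5% of all genes, 8.28% higher and 9.24% lower. The adjusted p alone was passed by 25, 32 and 40 of the 56 in RBPMS-KD, RBFOX2-KD and QKI-KD, against 59.4%, 60.3% and 66.9% of all genes. Among the 29 genes at 1 CPM or more, 3, 9 and 12 changed, against 6.09%, 7.38% and 12.9% of all genes at that level, and 23, 23 and 27 passed the adjusted p, against 73.2%, 72.7% and 78.5%. The limit is on the mean of all libraries, and 8 of the 29 were under 1 CPM in at least 1 group, so that they were inside it through the groups where they were high. Of these Cdh17 was under 1 CPM in control and came in through QKI-KD, and without it 8 changed in RBFOX2-KD and 11 in QKI-KD. Over these 29 genes the median log2FC was −0.32, −0.37 and −0.57, while over all tested genes it was 0.0085, 0.015 and 0.0070. The latter include genes under 1 CPM, so these medians are not matched by level. The 3 comparisons share the control libraries, so the values for 1 gene in different knockdowns are given side by side and differences between knockdowns were tested directly.

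**Figure D2:**
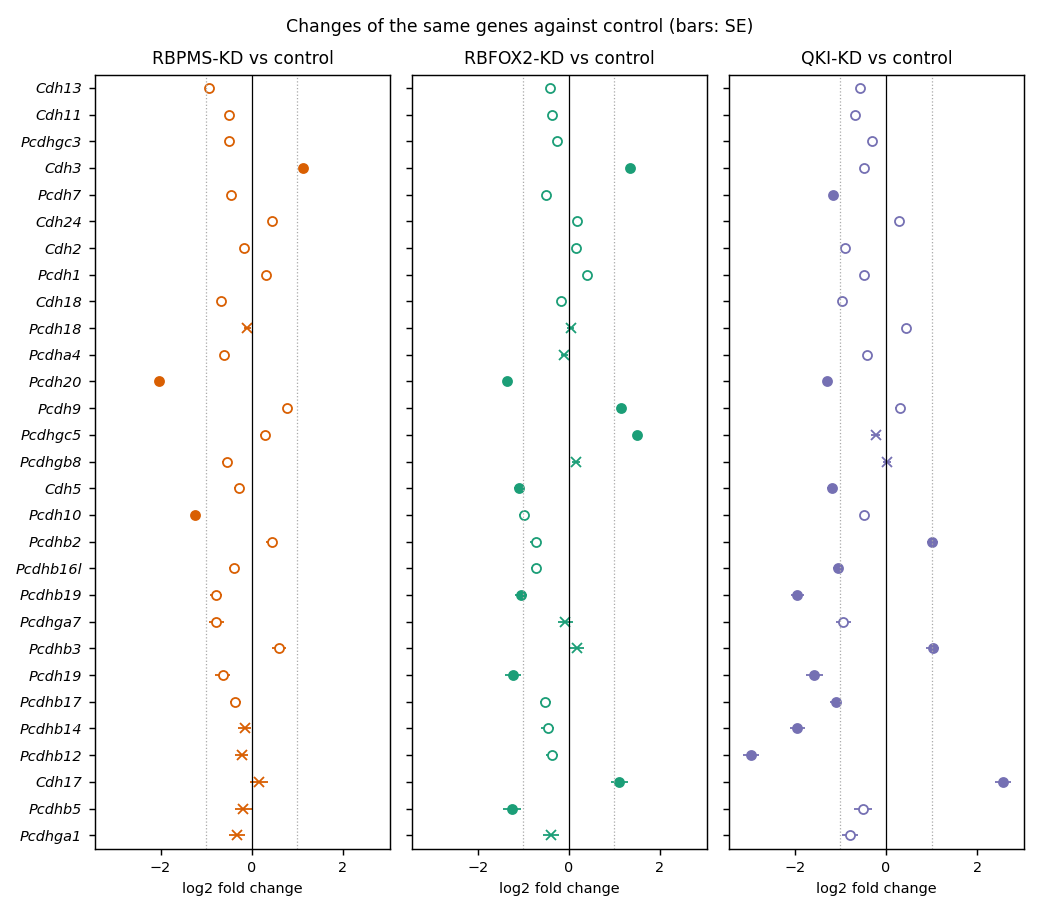
Log2FC against control, with its SE as a bar, of the 29 genes at a mean of 1 CPM or more in each knockdown, ordered by level. Filled circles are genes past adjusted p 0.05 and an absolute log2FC of 1, open circles passed the adjusted p alone, and crosses did not pass it. There are 3 filled circles in RBPMS-KD, 9 in RBFOX2-KD and 12 in QKI-KD.

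Of the classical cadherins, Cdh3 (P-cadherin) moved in opposite directions. Cdh3 was at 47.5, 48.8 and 49.9 CPM in the control libraries, 117, 99.2 and 104 CPM in RBPMS-KD, 132, 118 and 123 CPM in RBFOX2-KD and 36.4, 34.5 and 33.9 CPM in QKI-KD. The 6 RBPMS and RBFOX2 libraries lay above all control libraries and the 3 QKI libraries below them, with no overlap between these sets. The log2FC was 1.13 (SE 0.056, adjusted p 2.43e-11) in RBPMS-KD, 1.35 (SE 0.057, adjusted p 1.83e-12) in RBFOX2-KD and −0.48 (SE 0.057, adjusted p 8.73e-07) in QKI-KD. Tested directly, QKI-KD was lower than both, with a log2FC of −1.61 against RBPMS-KD and −1.83 against RBFOX2-KD (adjusted p 1.68e-13 and 2.27e-14).

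Cdh2 encodes N-cadherin. Cdh2 was at 59.4, 52.8 and 66.6 CPM in the control libraries, 53.4, 53.1 and 53.6 CPM in RBPMS-KD, 69.7, 66.8 and 63.4 CPM in RBFOX2-KD and 32.9, 30.3 and 31.9 CPM in QKI-KD. The QKI libraries lay below all others, while the control libraries spanned those of RBPMS-KD and overlapped those of RBFOX2-KD. The log2FC in QKI-KD was −0.91 (SE 0.064, adjusted p 8.78e-10), and against RBFOX2-KD it was −1.07. The log2FC values of −0.16 in RBPMS-KD and 0.16 in RBFOX2-KD had adjusted p of 0.0372 and 0.0336. They did not hold without single libraries, being −0.073 without control 3 (adjusted p 0.277) and 0.078 without control 2 (adjusted p 0.231).

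Cdh13 encodes T-cadherin, a receptor for adiponectin. Cdh13 was at 245, 249.998 and 245 CPM in the control libraries, 129, 128 and 129 CPM in RBPMS-KD, 185, 188 and 184 CPM in RBFOX2-KD and 161, 171 and 167 CPM in QKI-KD. No knockdown library overlapped control, and the RBPMS libraries were the lowest. Against control the log2FC was −0.94 (SE 0.032, adjusted p 1.91e-13), −0.41 (SE 0.031, adjusted p 4.17e-09) and −0.57 (SE 0.031, adjusted p 3.38e-11) in RBPMS-KD, RBFOX2-KD and QKI-KD, none past a log2FC of 1. Cdh11 encodes OB-cadherin, a type II cadherin of mesenchymal cells. Cdh11 was at 145, 136 and 170.4 CPM in the control libraries, 118, 95.9 and 106 CPM in RBPMS-KD, 117, 119 and 112 CPM in RBFOX2-KD and 94.7, 96.1 and 88.7 CPM in QKI-KD. All 9 knockdown libraries lay below the control libraries, with log2FC values of −0.50, −0.37 and −0.69 in RBPMS-KD, RBFOX2-KD and QKI-KD (adjusted p 1.55e-05, 3.02e-04 and 2.31e-07).

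The other type II cadherins went both ways. Cdh18, best known from brain, was at 22.9 ± 1.27 CPM (SD, n = 3) in control and fell to 14.4 ± 0.453 CPM in RBPMS-KD, 20.3 ± 0.631 CPM in RBFOX2-KD and 11.8 ± 0.334 CPM in QKI-KD, log2FC values of −0.67, −0.17 and −0.96. Cdh24 was at 48.8 ± 1.09 CPM in control and rose to 66.0 ± 1.34 CPM, 55.1 ± 1.63 CPM and 59.5 ± 3.43 CPM, log2FC values of 0.44, 0.17 and 0.28 (adjusted p 1.01e-07, 0.00175 and 1.19e-05). These changes were small but larger than the spread between libraries, which did not overlap control for either gene.

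Cdh5 encodes VE-cadherin of endothelial junctions. Cdh5 was at 6.44, 7.49 and 6.39 CPM in the control libraries, 5.09, 5.74 and 5.93 CPM in RBPMS-KD, 2.68, 3.56 and 3.25 CPM in RBFOX2-KD and 3.23, 2.54 and 3.18 CPM in QKI-KD. The RBFOX2 and QKI libraries lay at about the same level, and all of them were below control. This corresponded to log2FC values of −1.10 (SE 0.11, adjusted p 1.72e-07) in RBFOX2-KD and −1.18 (SE 0.11, adjusted p 5.70e-08) in QKI-KD, and QKI-KD against RBFOX2-KD gave −0.080 (adjusted p 0.562). In RBPMS-KD the value of −0.28 (adjusted p 0.0356) was −0.20 without control 2 (adjusted p 0.167). Of 9 endothelial markers, 6 were tested and 3 were at 1 CPM or more, while Kdr, Cldn5 and Emcn were at means of 0.0149, 0.0144 and 0.0123 CPM. The whole list summed to 9.85 to 10.8 CPM in control, 9.97 to 10.3 in RBPMS-KD, 8.18 to 8.33 in RBFOX2-KD and 7.12 to 8.81 in QKI-KD. Its members went in both directions past the adjusted p, with 3 higher and 1 lower in RBPMS-KD, 0 and 2 in RBFOX2-KD and 3 and 2 in QKI-KD. Of all tested genes 30.4% were higher and 29.0% lower in RBPMS-KD, 30.1% and 30.1% in RBFOX2-KD and 32.9% and 34.0% in QKI-KD. In RBPMS-KD and in QKI-KD 2 of the markers changed, all higher, where 5.16% and 8.28% of all tested genes changed higher.

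Cdh17, liver-intestine cadherin, is a cadherin of intestinal epithelium with a short tail. Cdh17 was at 0.498, 0.396 and 0.455 CPM in the control libraries, 0.432, 0.591 and 0.473 CPM in RBPMS-KD, 0.911, 1.17 and 0.815 CPM in RBFOX2-KD and 2.41, 3.06 and 2.52 CPM in QKI-KD. The QKI libraries were the highest and did not overlap those of RBFOX2-KD, which in turn lay above control and RBPMS-KD. The log2FC was 1.11 (SE 0.18, adjusted p 5.29e-05) in RBFOX2-KD and 2.57 (SE 0.18, adjusted p 6.37e-10) in QKI-KD, and 0.17 with an adjusted p of 0.502 in RBPMS-KD. Tested directly, the log2FC of QKI-KD against RBFOX2-KD was 1.46 (adjusted p 3.21e-07). Cdh1, which encodes E-cadherin of epithelia, was under 1 CPM, with counts of 6, 16 and 12 in control, 6, 14 and 10 in RBPMS-KD, 20, 16 and 26 in RBFOX2-KD and 40, 46 and 60 in QKI-KD. It rose in QKI-KD with a log2FC of 2.23 (SE 0.38, adjusted p 5.59e-05).

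Epithelial markers were examined beside these genes. Of the 9, Krt18 and Cldn7 were at means of 0.0255 and 0.0194 CPM, and Krt19 and Esrp1 at 0.00243 and 0.00876 CPM. The list summed to 48.4 to 48.8 CPM in control, 59.1 to 65.9 in RBPMS-KD, 92.5 to 95.8 in RBFOX2-KD and 57.8 to 64.3 in QKI-KD, most of it Krt8 at a mean of 44.0 CPM. Of 5 tested, 3 were higher and 1 lower past the adjusted p in QKI-KD, 2 and 1 in RBFOX2-KD and 2 and 2 in RBPMS-KD. Past both thresholds 2 were higher and 0 lower in QKI-KD, 1 and 1 in RBFOX2-KD and 0 and 1 in RBPMS-KD. Of all tested genes 8.28% and 9.24%, 6.96% and 4.73%, and 5.16% and 4.50% did so, in the same order. In QKI-KD, Cldn4, a claudin of tight junctions, rose with a log2FC of 3.92 (SE 0.21, adjusted p 2.17e-11), and Epcam, at a mean of 0.126 CPM, with 2.62. Grhl2, an epithelial transcription factor, was higher by 0.75 and Esrp2, an epithelial splicing regulator, had −0.81 (SE 0.082, adjusted p 1.18e-07), while 0.078 for Krt8 did not pass the test. The part of these markers in the result for Cdh1 and Cdh17 was not tested. Neuronal and glial markers summed to 117 to 131 CPM in control, 135 to 158 in RBPMS-KD, 61.8 to 67.8 in RBFOX2-KD and 61.6 to 82.9 in QKI-KD, most of it Stmn2, while Snap25, Elavl4 and Sox10 were at 0.00801, 0.00117 and 0.0117 CPM. Of 9 neuronal and glial markers, 6 were tested and 3 were at 1 CPM or more. Those tested went both ways past the adjusted p, with 2 higher and 2 lower in RBPMS-KD, 1 and 2 in RBFOX2-KD and 1 and 4 in QKI-KD. The shares of all tested genes were 30.4% higher and 29.0% lower in RBPMS-KD, 30.1% and 30.1% in RBFOX2-KD and 32.9% and 34.0% in QKI-KD. Leukocyte markers summed to 1.85 to 2.10 CPM in control, 2.55 to 3.10 in RBPMS-KD, 2.16 to 2.98 in RBFOX2-KD and 6.11 to 6.41 in QKI-KD. Of 7 leukocyte markers, 3 were tested and 2 were at 1 CPM or more, while Ptprc was at 0.0118 CPM. Past the adjusted p, 1 was higher in RBPMS-KD, 1 in RBFOX2-KD and 2 in QKI-KD, and 0 were lower. In RBPMS-KD and in QKI-KD 1 changed, where 5.16% and 8.28% of all tested genes changed higher.

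**Figure D3:**
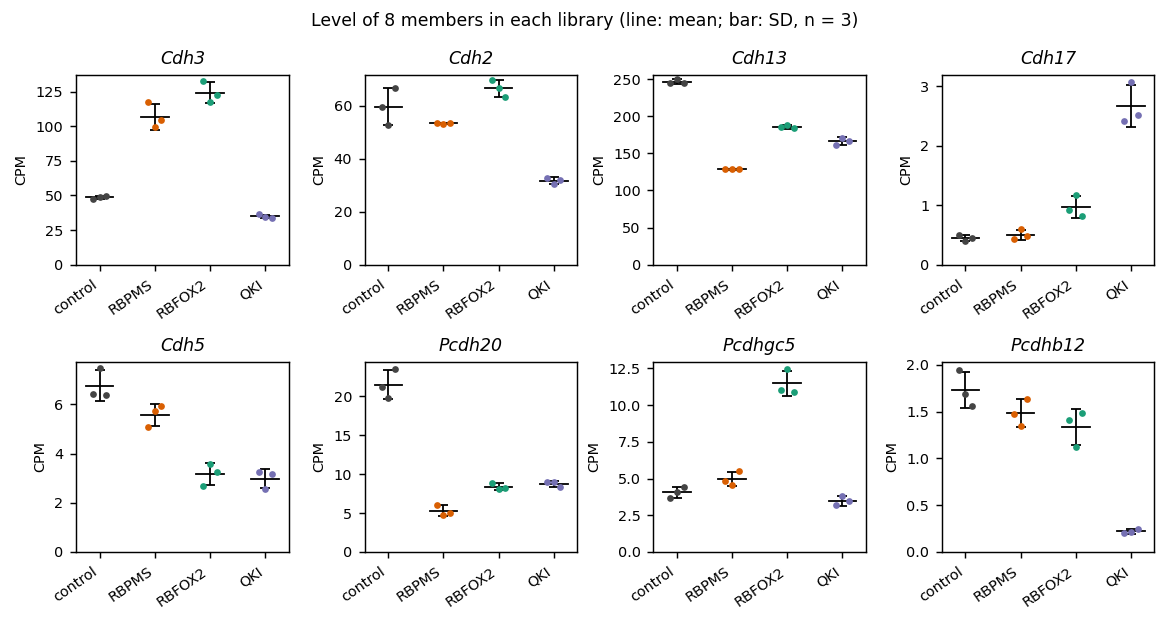
Level in CPM of 8 genes in each library (points), with the group mean (line) and SD (bar, n = 3), on axes that start at 0. Cdh3 is high in RBPMS-KD and RBFOX2-KD and low in QKI-KD, Pcdh20 is low in all 3 knockdowns, Pcdhgc5 is high in RBFOX2-KD, and Pcdhb12 is low and Cdh17 high in QKI-KD.

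Of the 9 tested protocadherins outside the clusters, 2 changed in RBPMS-KD, 4 in RBFOX2-KD and 3 in QKI-KD, where 9.66%, 11.7% and 17.5% of all tested genes did. Pcdh20 fell most in RBPMS-KD and in RBFOX2-KD. Pcdh20 was at 21.3, 19.8 and 23.5 CPM in the control libraries, 6.07, 4.75 and 5.04 CPM in RBPMS-KD, 8.88, 8.04 and 8.27 CPM in RBFOX2-KD and 8.97, 8.995 and 8.31 CPM in QKI-KD. Every knockdown library lay under the lowest control library. Its log2FC came to −2.03 (SE 0.084, adjusted p 2.44e-12), −1.36 (SE 0.080, adjusted p 1.53e-10) and −1.30 (SE 0.080, adjusted p 1.65e-10) in RBPMS-KD, RBFOX2-KD and QKI-KD. RBPMS-KD was the lowest, and against it the log2FC was 0.67 in RBFOX2-KD and 0.73 in QKI-KD (adjusted p 3.85e-06 and 1.05e-06).

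Pcdh10, Pcdh19 and Pcdh18 belong to the delta-2 protocadherins, whose tails bind the WAVE complex that drives actin branching. Pcdh10 was at 4.65, 5.08 and 5.22 CPM in the control libraries, 2.21, 1.95 and 2.19 CPM in RBPMS-KD, 2.48, 2.39 and 2.66 CPM in RBFOX2-KD and 3.84, 3.13 and 3.70 CPM in QKI-KD. All knockdown libraries were below control, with the QKI libraries nearest to it. The 3 log2FC values were −1.24 (SE 0.097, adjusted p 6.88e-09), −0.99 (SE 0.094, adjusted p 7.16e-08) and −0.48 (SE 0.092, adjusted p 1.64e-04) in the same order, and only the first was past a log2FC of 1. Pcdh19, which forms complexes with N-cadherin, was at 2.09, 2.03 and 2.49 CPM in control, 1.77, 1.12 and 1.38 CPM in RBPMS-KD, 0.969, 0.854 and 0.999 CPM in RBFOX2-KD and 0.924, 0.670 and 0.613 CPM in QKI-KD. Its log2FC values were −0.64 (SE 0.17, adjusted p 0.00370), −1.23 (SE 0.17, adjusted p 9.14e-06) and −1.57 (SE 0.18, adjusted p 5.36e-07), with no overlap between control and any knockdown. Pcdh18 was at 14.5 ± 1.52 CPM (SD, n = 3) in control and rose in QKI-KD to 19.8 ± 0.438 CPM, a log2FC of 0.45 (SE 0.071, adjusted p 2.66e-05), while the values of −0.097 and 0.040 in RBPMS-KD and RBFOX2-KD did not pass the test.

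Pcdh1, Pcdh7 and Pcdh9 belong to the delta-1 protocadherins. Pcdh7 was at 105, 102 and 118 CPM in the control libraries, 84.8, 70.7 and 83.3 CPM in RBPMS-KD, 78.0, 76.9 and 75.2 CPM in RBFOX2-KD and 49.2, 45.9 and 50.2 CPM in QKI-KD. The log2FC values were −0.45 (SE 0.063, adjusted p 9.34e-06), −0.50 (SE 0.063, adjusted p 2.41e-06) and −1.16 (SE 0.064, adjusted p 3.48e-11). QKI-KD was the lowest, with a log2FC of −0.71 against RBPMS-KD and −0.66 against RBFOX2-KD (adjusted p 3.27e-08 and 5.96e-08). Pcdh9 was at 5.35, 6.01 and 4.36 CPM in the control libraries, 8.56, 8.56 and 9.77 CPM in RBPMS-KD, 11.2, 12.1 and 11.3 CPM in RBFOX2-KD and 6.34, 6.22 and 6.80 CPM in QKI-KD. All knockdown libraries were above control and the RBFOX2 libraries were the highest, with log2FC values of 0.77 (SE 0.093, adjusted p 1.43e-06), 1.14 (SE 0.091, adjusted p 8.57e-09) and 0.30 (SE 0.094, adjusted p 0.00972). The last was 0.18 without control 3 (adjusted p 0.0638). Pcdh1, expressed in airway epithelium, was at 45.2 ± 0.674 CPM (SD, n = 3) in control. Like Cdh3 it was higher in RBPMS-KD and RBFOX2-KD, at 56.3 ± 4.69 CPM and 59.3 ± 1.01 CPM, and lower in QKI-KD, at 32.2 ± 1.57 CPM, with log2FC values of 0.32, 0.39 and −0.49 (adjusted p 4.59e-05, 3.84e-06 and 2.31e-07).

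The beta protocadherins held most of the genes that changed in QKI-KD. Of 17 tested, 15 changed in QKI-KD, 4 in RBFOX2-KD and 0 in RBPMS-KD, against 17.5%, 11.7% and 9.66% of all tested genes. In the same order, edgeR's adjusted p was passed by 16, 9 and 5 of them, against 66.9%, 60.3% and 59.4% of all genes, so the last count is below the background share and that for RBFOX2-KD near it. Median log2FC values over the 17 were −1.14 in QKI-KD, −0.52 in RBFOX2-KD and −0.18 in RBPMS-KD. In the direct comparisons, 10 of 17 changed between QKI-KD and RBPMS-KD, where 12.2% of all genes did, and 6 between QKI-KD and RBFOX2-KD, where 18.4% did. The beta genes are close copies of each other and how reads that match several genes were counted is not stated, so the values of single members are uncertain to that extent.

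Beta genes are each read from their own promoter, and the promoters are shown because Pcdhb2 and Pcdhb3 rose in QKI-KD while other beta genes fell. RefSeq promoters of the assembly GRCr8, which is not the authors' build, were found for 17 of the 19 beta genes of the table. These are not the same 17 as those tested, since they include the untested Pcdhb1 and Pcdhb6 and lack Pcdhb17. The element CGCT, or AGCG on the other strand, is known as the core of the element shared by clustered protocadherin promoters. Within the 250 bases before the start it was found in 15 of the 17, against 55.1% of all 33469 promoters. It was also in 11 of 14 gamma promoters, 9 of 11 of protocadherins outside the clusters and 10 of 13 of Cdh genes. The core alone therefore does not set the beta promoters apart from those of these other members. The 10-letter form with that core which the most beta promoters share is GGTGGCGCTG or its reverse complement CAGCGCCACC, and it was chosen on these sequences. It was in 14 of 17 beta promoters, in 0 of 14 gamma promoters and in 0.188% of all promoters. The 60 bases around it are given for the beta genes at 1 CPM or more that carry it, on the plus strand of chromosome 18, with the longer form in capitals.
Pcdhb2: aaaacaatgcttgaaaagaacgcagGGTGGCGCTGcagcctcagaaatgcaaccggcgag
Pcdhb3: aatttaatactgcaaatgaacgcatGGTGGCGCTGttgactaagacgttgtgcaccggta
Pcdhb5: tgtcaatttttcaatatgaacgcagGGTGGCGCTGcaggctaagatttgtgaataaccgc
Pcdhb12: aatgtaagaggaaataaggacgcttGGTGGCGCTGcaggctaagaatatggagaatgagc
Pcdhb14: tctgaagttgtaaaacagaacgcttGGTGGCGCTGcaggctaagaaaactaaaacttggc
Pcdhb19: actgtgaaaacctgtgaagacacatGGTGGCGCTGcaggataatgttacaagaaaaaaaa
The stretches lie at chr18:29279908-29279967, chr18:29285589-29285648, chr18:29302389-29302448, chr18:29413633-29413692, chr18:29431794-29431853 and chr18:29478749-29478808, each upstream of the annotated start. The first base of the element lies 71, 61, 52, 98, 68 and 74 bases before the start, in the same order. The element is present both in Pcdhb2 and Pcdhb3, which rose in QKI-KD, and in Pcdhb12, Pcdhb14 and Pcdhb19, which fell. It was not found in the window of Pcdhb16l. Pcdhb17 was not matched. These are matches of letters only.

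Pcdhb2 and Pcdhb3 were the beta genes that rose in QKI-KD. Pcdhb2 was at 2.32, 1.85 and 2.56 CPM in the control libraries, 3.25, 2.92 and 2.94 CPM in RBPMS-KD, 1.25, 1.37 and 1.43 CPM in RBFOX2-KD and 4.71, 4.07 and 4.83 CPM in QKI-KD. QKI-KD was above control, RBPMS-KD was above control by less, and RBFOX2-KD was below it, without overlap. Against control the log2FC was 0.44 (SE 0.12, adjusted p 0.00377), −0.73 (SE 0.12, adjusted p 6.63e-05) and 1.02 (SE 0.11, adjusted p 4.07e-07) in RBPMS-KD, RBFOX2-KD and QKI-KD. The log2FC of QKI-KD against RBFOX2-KD was 1.75 (adjusted p 6.60e-10), and that of RBFOX2-KD against RBPMS-KD was −1.17 (adjusted p 3.79e-07). Pcdhb3 was at 1.08, 1.08 and 1.42 CPM in control, 1.66, 1.97 and 1.79 CPM in RBPMS-KD, 1.63, 1.32 and 1.09 CPM in RBFOX2-KD and 2.44, 2.25 and 2.58 CPM in QKI-KD. It rose in RBPMS-KD and QKI-KD, with log2FC values of 0.60 (SE 0.15, adjusted p 0.00253) and 1.02 (SE 0.15, adjusted p 1.02e-05), while RBFOX2-KD overlapped control, with 0.17 (adjusted p 0.346).

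Pcdhb5 was lowest in RBFOX2-KD. It was at 1.31, 1.39 and 1.67 CPM in control, 1.76, 1.05 and 1.06 CPM in RBPMS-KD, 0.658, 0.598 and 0.580 CPM in RBFOX2-KD and 1.00, 1.18 and 0.895 CPM in QKI-KD. The log2FC was −1.25 (SE 0.20, adjusted p 3.18e-05) in RBFOX2-KD, without overlap with control. In QKI-KD it was −0.50 (SE 0.19, adjusted p 0.0262), and −0.40 without control 3 (adjusted p 0.109). In RBPMS-KD the value of −0.18 did not pass the test, and RBPMS-KD 1 lay above all control libraries. Without that library it was −0.47 (adjusted p 0.0247).

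Of the genes further along the cluster, Pcdhb12 fell most among those at 1 CPM or more. Pcdhb12 was at 1.94, 1.69 and 1.56 CPM in the control libraries, 1.48, 1.35 and 1.64 CPM in RBPMS-KD, 1.41, 1.12 and 1.48 CPM in RBFOX2-KD and 0.202, 0.209 and 0.250 CPM in QKI-KD. The 3 QKI libraries were far below all 9 others. The log2FC in QKI-KD was −2.97 (SE 0.18, adjusted p 1.24e-10), and against RBPMS-KD and RBFOX2-KD it was −2.75 and −2.60 (adjusted p 7.18e-10 and 9.54e-10). The value of −0.37 in RBFOX2-KD (adjusted p 0.0319) was −0.28 without control 1 (adjusted p 0.138). Pcdhb14 was at 1.76, 1.43 and 1.92 CPM in control, 1.52, 1.61 and 1.45 CPM in RBPMS-KD, 1.21, 1.27 and 1.20 CPM in RBFOX2-KD and 0.368, 0.435 and 0.524 CPM in QKI-KD. Its log2FC was −1.95 (SE 0.16, adjusted p 7.39e-09) in QKI-KD and −0.47 (SE 0.14, adjusted p 0.00825) in RBFOX2-KD, while −0.15 in RBPMS-KD did not pass the test.

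Pcdhb19 was at 3.05, 2.75 and 3.08 CPM in control, 1.96, 1.52 and 1.69 CPM in RBPMS-KD, 1.59, 1.39 and 1.31 CPM in RBFOX2-KD and 0.621, 0.870 and 0.823 CPM in QKI-KD. This corresponded to log2FC values of −0.78 (SE 0.13, adjusted p 6.42e-05), −1.05 (SE 0.13, adjusted p 2.45e-06) and −1.95 (SE 0.14, adjusted p 1.69e-09), with no overlap with control in any knockdown. Pcdhb16l was at 2.86, 2.52 and 3.03 CPM in control, 2.09, 2.16 and 2.13 CPM in RBPMS-KD, 1.89, 1.54 and 1.67 CPM in RBFOX2-KD and 1.31, 1.32 and 1.43 CPM in QKI-KD. Its log2FC values were −0.40 (SE 0.11, adjusted p 0.00411), −0.72 (SE 0.11, adjusted p 1.90e-05) and −1.05 (SE 0.11, adjusted p 2.10e-07), again with no overlap. Pcdhb17 was at 1.79, 1.66 and 1.87 CPM in control, 1.39, 1.33 and 1.43 CPM in RBPMS-KD, 1.27, 1.17 and 1.26 CPM in RBFOX2-KD and 0.736, 0.835 and 0.903 CPM in QKI-KD. It showed log2FC values of −0.36 (SE 0.12, adjusted p 0.0160), −0.52 (SE 0.12, adjusted p 0.00107) and −1.10 (SE 0.12, adjusted p 4.53e-07), and the first was −0.32 without control 3 (adjusted p 0.0580). In each of these genes the QKI libraries were the lowest of the 12.

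In the order of RefSeq GRCr8, all 13 tested genes from Pcdhb7 to Pcdhb21 were lower in QKI-KD past both thresholds, with log2FC values of −3.01 to −1.02 and a median of −1.34. Of the 4 tested genes before them, from Pcdhb2 to Pcdhb5, 2 rose and 1 fell past the adjusted p in QKI-KD. In RBFOX2-KD, 7 of the 13 passed the adjusted p and 3 changed, all lower. In RBPMS-KD 3 passed it, all lower, and 0 changed. Of all tested genes 30.1%, 29.0% and 34.0% were lower past the adjusted p in RBFOX2-KD, RBPMS-KD and QKI-KD. Past both thresholds 4.73%, 4.50% and 9.24% were lower, in the same order. This stretch was marked off after the values were seen, so its count in QKI-KD follows in part from that choice. Several of the 13 lay near the thresholds there, with −1.02 for Pcdhb20, −1.05 for Pcdhb16l and −1.13 for Pcdhb10 (adjusted p 0.0439). For Pcdhb16l the value was as small as −0.96 under other processing and −0.99 without a single library. The count of 13 therefore depends on the settings. The QKI and control libraries of Pcdhb9 overlapped. Some genes of this stretch held few counts. Pcdhb7 had counts of 16, 34 and 37 in control and 10, 2 and 5 in QKI-KD, a log2FC of −2.22. Pcdhb8 had 11, 27 and 22 in control, 4, 6 and 7 in RBFOX2-KD and 8, 4 and 4 in QKI-KD, log2FC values of −1.80 and −1.76. Pcdhb11 had 25, 34 and 13 in control and 4, 0 and 4 in QKI-KD, −3.01 on the log2 scale.

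**Figure D4:**
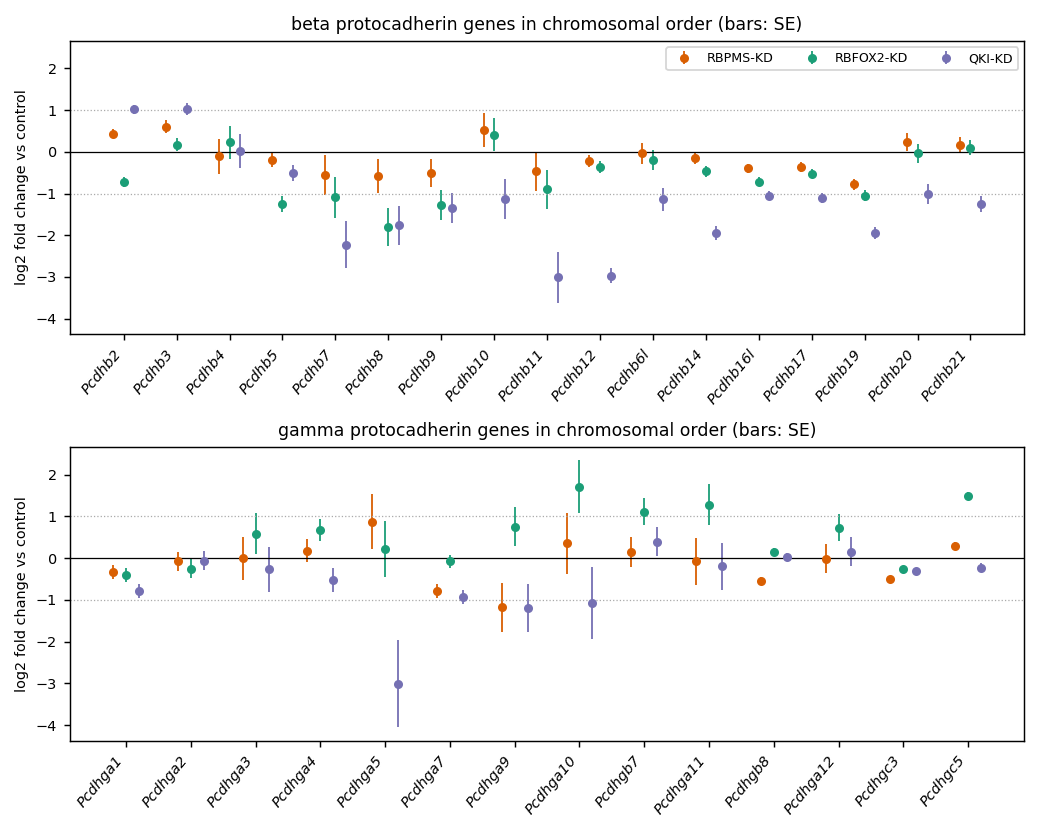
Log2FC against control, with its SE as a bar, of the tested beta (top) and gamma (bottom) protocadherin genes in chromosomal order, with a colour per knockdown. In the beta cluster the QKI values are above 0 for Pcdhb2 and Pcdhb3 and under −1 for all 13 genes from Pcdhb7 on. In the gamma cluster the RBFOX2 values are the highest at Pcdhga10 and Pcdhgc5, and the QKI value of Pcdhga5 rests on counts of 0, 0 and 2.

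Of 14 gamma genes tested, 5 were higher and 1 lower past the adjusted p in RBFOX2-KD. Of all tested genes 30.1% were higher and 30.1% lower by that test, so the count of higher genes is near the background share. RBPMS-KD had 1 higher and 3 lower, against 30.4% and 29.0% of all genes, and QKI-KD 0 higher and 4 lower, against 32.9% and 34.0%. In RBFOX2-KD 4 gamma genes changed, all higher, where 6.96% of all tested genes changed higher and 4.73% lower. Those other than Pcdhgc5 were under 1 CPM and held few counts. Pcdhga10, for example, had counts of 6, 4 and 4 in control and 14, 20 and 14 in RBFOX2-KD. The variable exons of this cluster resemble each other and the constant exons are shared, so the split of counts between gamma genes is uncertain, and likewise for alpha. Pcdhgc5 was the gamma gene at 1 CPM or more that changed. Pcdhgc5 was at 3.65, 4.11 and 4.43 CPM in the control libraries, 4.86, 4.53 and 5.50 CPM in RBPMS-KD, 11.05, 12.5 and 10.9 CPM in RBFOX2-KD and 3.18, 3.83 and 3.46 CPM in QKI-KD. The RBFOX2 libraries were above all 9 others, and the QKI and control libraries overlapped. The log2FC in RBFOX2-KD was 1.498 (SE 0.092, adjusted p 2.62e-10), and against RBPMS-KD it was 1.21 (adjusted p 7.11e-09), while that of QKI-KD against RBFOX2-KD was −1.72 (adjusted p 3.24e-11). In RBPMS-KD the value was 0.29 (adjusted p 0.0167), or 0.22 without control 1 (adjusted p 0.0879), and in QKI-KD −0.22 (adjusted p 0.0528).

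Pcdhgc3 held most of the gamma counts. Pcdhgc3 was at 122, 129 and 138 CPM in the control libraries, 99.3, 77.7 and 99.6 CPM in RBPMS-KD, 108, 109.6 and 106 CPM in RBFOX2-KD and 107, 107 and 101 CPM in QKI-KD. All 9 knockdown libraries were below control, and RBPMS-KD 2 was the lowest. Its log2FC came to −0.49 (SE 0.071, adjusted p 1.16e-05), −0.26 (SE 0.070, adjusted p 0.00392) and −0.30 (SE 0.070, adjusted p 0.00114) in RBPMS-KD, RBFOX2-KD and QKI-KD. Of the other gamma genes at 1 CPM or more, Pcdhgb8 fell from 5.91 ± 0.966 CPM (SD, n = 3) to 4.05 ± 0.170 CPM in RBPMS-KD, a log2FC of −0.55 (SE 0.095, adjusted p 8.82e-05), and stood at 0.15 and 0.025 in RBFOX2-KD and QKI-KD without passing the test. Pcdhga7, at 2.23 ± 0.305 CPM in control, had log2FC values of −0.78, −0.078 and −0.94, of which the first and the last passed the test (adjusted p 7.05e-04 and 9.36e-05). Pcdhga1, at 1.32 ± 0.105 CPM in control, had −0.32, −0.39 and −0.79, of which the last passed (adjusted p 7.24e-04). Pcdhga5 was at the limit of detection, with counts of 4, 2 and 14 in control and 0, 0 and 2 in QKI-KD, and no fold is given. The alpha gene Pcdha4 was at 16.4 ± 1.81 CPM in control and fell to 10.8 ± 1.14 CPM in RBPMS-KD and 12.2 ± 0.545 CPM in QKI-KD, log2FC values of −0.60 (SE 0.085, adjusted p 1.05e-05) and −0.42 (SE 0.084, adjusted p 2.99e-04), with −0.100 (adjusted p 0.318) in RBFOX2-KD.

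Among the Cdh genes under 1 CPM, Cdh23 had the largest change. It encodes a long cadherin that pairs with that of Pcdh15 in the tip links of hair cells. Its counts were 4, 18 and 7 in control, 15, 22 and 8 in RBPMS-KD, 95, 70 and 82 in RBFOX2-KD and 24, 15 and 27 in QKI-KD. The log2FC in RBFOX2-KD was 3.07 (SE 0.39, adjusted p 2.78e-06), with every library above all others, and it was 3.78 without control 2. In QKI-KD it was 1.30 (adjusted p 0.0145). That value was 2.01 without control 2, and it missed the threshold without control 1 (0.99, adjusted p 0.0648), without control 3 (1.12, adjusted p 0.0561) and without QKI-KD 3 (1.11, adjusted p 0.0601). In RBPMS-KD the value of 0.84 (adjusted p 0.126) was 1.56 without control 2 (adjusted p 0.0163).

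In contrasts between knockdowns, 8 of the 56 genes changed between RBFOX2-KD and RBPMS-KD, where 7.52% of all genes did. The control libraries do not enter these contrasts but are part of the same fit. Of these 5 were higher and 3 lower in RBFOX2-KD, a split that was 7 and 1 when libraries were scaled by their totals alone. Those at 1 CPM or more were Pcdhgc5, which was higher in RBFOX2-KD, and Pcdhb2 and Pcdhb5, which were lower. Between QKI-KD and RBPMS-KD 17 changed, where 12.2% did, and between QKI-KD and RBFOX2-KD 18, where 18.4% did. At 1 CPM or more, Cdh3, Cdh17, Pcdhb12 and Pcdhb14 were among the changed genes in both, with Cdh17 higher and the others lower in QKI-KD.

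The proteins that cadherins and protocadherins work with were examined through lists of genes. Of all tested genes, 30.4% were higher and 29.0% lower past the adjusted p in RBPMS-KD, 30.1% and 30.1% in RBFOX2-KD and 32.9% and 34.0% in QKI-KD, which is the background for the counts of each list. Of 13 catenins and other armadillo proteins, 11 were tested, with 2 higher and 6 lower past the adjusted p in RBPMS-KD, 3 and 6 in RBFOX2-KD and 1 and 7 in QKI-KD. Median log2FC values were −0.12, −0.18 and −0.36, where those over all tested genes were near 0. Ctnnb1 encodes beta-catenin, which also acts in Wnt signalling. Ctnnb1 was at 528, 536 and 567 CPM in the control libraries, 463, 464 and 452 CPM in RBPMS-KD, 177, 184 and 173 CPM in RBFOX2-KD and 414, 422 and 419 CPM in QKI-KD. The RBFOX2 libraries were below all others, and the log2FC values were −0.24 (SE 0.034, adjusted p 9.52e-06), −1.61 (SE 0.035, adjusted p 4.16e-16) and −0.38 (SE 0.034, adjusted p 2.73e-08). Ctnna1 (alpha-catenin) was at 467 ± 9.92 CPM (SD, n = 3) in control, with log2FC values of 0.042, 0.16 and −0.36, of which those in RBFOX2-KD and QKI-KD passed the test. Ctnnd1 (p120-catenin, which keeps cadherins at the membrane) was at 302 ± 7.64 CPM in control and fell in each knockdown, with −0.45, −0.35 and −1.06 on the log2 scale. Jup (plakoglobin) was at 136 ± 10.0 CPM in control and also fell in each, with −0.72, −0.72 and −1.19. Pkp1, a plakophilin of desmosomes, was at 502 ± 16.6 CPM in control and had −0.12, −0.35 and −1.33.

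**Figure D5:**
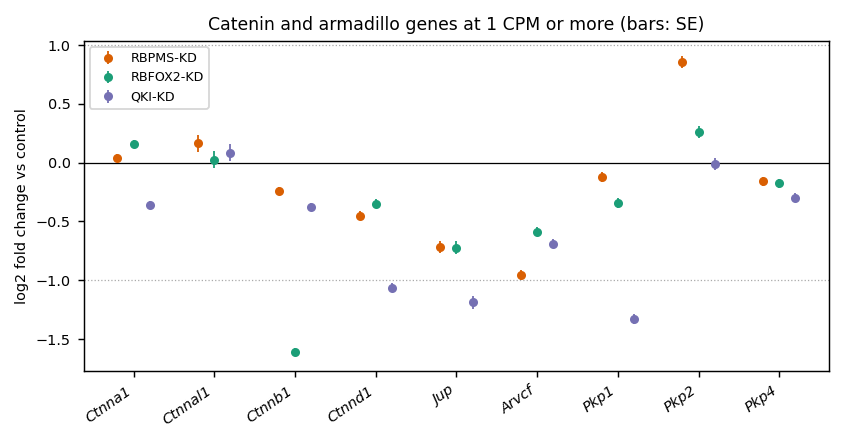
Log2FC against control, with its SE as a bar, of the 9 catenin and armadillo genes at a mean of 1 CPM or more, with a colour per knockdown. Ctnnb1 is lowest in RBFOX2-KD, and Ctnnd1, Jup and Pkp1 are lowest in QKI-KD.

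Of 24 other members of the cadherin superfamily, 17 were tested. In RBPMS-KD 5 were higher and 7 lower past the adjusted p, in RBFOX2-KD 6 and 3, and in QKI-KD 6 and 4, with medians of −0.28, 0.12 and 0.20. Fat3 and Fat4 encode giant atypical cadherins. Fat3 had log2FC values of 1.11, 1.01 and 0.90 in RBPMS-KD, RBFOX2-KD and QKI-KD, and Fat4 rose in RBFOX2-KD with 1.06 (SE 0.096, adjusted p 3.98e-08). Dsc2, a desmosomal cadherin, had a log2FC of −1.29 (SE 0.16, adjusted p 1.80e-06) in RBFOX2-KD, and Cdhr5, a protocadherin-like protein of microvilli, rose with 1.04 (SE 0.11, adjusted p 3.28e-07) in QKI-KD. Of the 14 nectins and other junction partners, 5 were higher and 8 lower in RBPMS-KD, 2 and 10 in RBFOX2-KD and 3 and 7 in QKI-KD, with medians of −0.17, −0.28 and −0.17. Lima1 encodes EPLIN, which connects alpha-catenin to actin, and had log2FC values of 1.43, 1.03 and −0.11, of which the first and second passed both thresholds (adjusted p 5.27e-13 and 2.03e-11).

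Cadherins are cleaved at the cell surface by ADAM proteases and then by gamma-secretase. Of 8 genes for these enzymes, 6 were lower and 0 higher in RBPMS-KD, 5 lower and 1 higher in RBFOX2-KD, and 4 lower and 0 higher in QKI-KD, past the adjusted p, where 29.0%, 30.1% and 34.0% of all genes were lower. The medians were −0.16, −0.31 and −0.24. Psen2 was at 49.3, 45.9 and 58.1 CPM in the control libraries, 19.9, 18.1 and 17.9 CPM in RBPMS-KD, 17.6, 18.3 and 18.2 CPM in RBFOX2-KD and 11.5, 11.99 and 10.9 CPM in QKI-KD. The log2FC values of Psen2, which encodes a catalytic presenilin, were −1.46 (SE 0.071, adjusted p 1.87e-11), −1.50004 (SE 0.071, adjusted p 8.41e-12) and −2.16 (SE 0.073, adjusted p 5.57e-14), with no overlap with control. Adam15 had a log2FC of −1.21 (SE 0.041, adjusted p 5.38e-14) in QKI-KD and Aph1a, a subunit of gamma-secretase, −1.15 (SE 0.030, adjusted p 3.65e-15) in RBFOX2-KD. Of 9 transcription factors known to repress Cdh1 or to act in the switch between E- and N-cadherin, 4 were higher and 4 lower in RBPMS-KD, 4 and 3 in RBFOX2-KD and 1 and 5 in QKI-KD, with medians of 0.052, −0.11 and −0.25. Snai2 (Slug), a repressor of Cdh1, had log2FC values of 0.30, 0.31 and −1.03 (adjusted p 0.00750, 0.00544 and 2.43e-08), and Twist2 had a log2FC of −1.06 (SE 0.076, adjusted p 2.04e-09) in RBFOX2-KD.

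Chromatin factors known to act at the clustered protocadherins include CTCF and cohesin, which loop promoters to enhancers. Of 12 such genes, 1 was higher and 1 lower in RBPMS-KD, 2 and 7 in RBFOX2-KD and 3 and 6 in QKI-KD, past the adjusted p, with medians of −0.022, −0.13 and −0.054. Of all genes 59.4%, 60.3% and 66.9% passed it in either direction. Stag2, a cohesin subunit, had a log2FC of −1.03 (SE 0.035, adjusted p 5.43e-14) in QKI-KD, and Dnmt3b, a DNA methyltransferase, −1.20 (SE 0.094, adjusted p 5.77e-09) in RBFOX2-KD. Of the 10 genes of the WAVE complex and other partners of protocadherin tails, 2 were higher and 4 lower in RBPMS-KD, 2 and 6 in RBFOX2-KD and 3 and 6 in QKI-KD, with medians of −0.086, −0.16 and −0.13, against the same shares of all genes. Abi2, a WAVE subunit, had a log2FC of −1.42 (SE 0.046, adjusted p 2.87e-14) in QKI-KD, and Cyfip2, another, −1.17 (SE 0.14, adjusted p 1.04e-06) in RBPMS-KD.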

How the data were processed

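The authors deposited raw counts per gene for 33294 symbols and a normalised signal for 22320 of them. Strand-specific paired reads of the 12 libraries were aligned with STAR to mRatBN7.2, counted with featureCounts on a RefSeq annotation, noise-filtered with noisyR and quantile-normalised, per the labels and the study's methods. The labels give STAR 2.5.2a, and the study's methods name a later version, after reads were subsampled to 1 depth in every library. Which run gave the deposited counts, whose totals differ between libraries, is not known. How the authors counted reads that match several genes, and whether counting used strand, is not given in the sources used here. Of count values from 1 to 19, 68.1% were even, against 50.9% above 1000, and a fit on halved counts was tried. Every column matched 1 library by its title.

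The test on the deposited counts was made in edgeR 4.0.16 under R 4.3.3 (TMM, filterByExpr by group, glmQLFit and glmQLFTest, two-sided, all 12 libraries in 1 fit, group only), which kept 18438 genes with 99.99% of counts. TMM factors were 0.948 to 1.046. Depth was 111 to 152 M counts per library, and the limits of low counts cover counting error only. Adjustment was by Benjamini-Hochberg over all tested genes, and the thresholds of adjusted p 0.05 and absolute log2 fold change 1 are those of the study's methods. The SE is the absolute log2 fold change over the square root of F. With 3 against 3 libraries an exact permutation test cannot give a p below 0.1. Scripts were tested on simulated data.

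Every member at a mean of 1 CPM or more was named, with values in each library for those past both thresholds in any knockdown and for the 4 highest. Of the members under 1 CPM, the 6 with the largest changes past both thresholds were named. In each list of partners the core catenins and up to 4 genes at 1 CPM or more with the largest changes past both thresholds were named. The members and lists were chosen with earlier results of these data known. Ctnnb1, Psen2 and Cdh2 were given per library after their values were seen, and so were the counts of single markers.

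Replicates with the same number were compared before averaging. Their deviations from group means correlated with r between −0.165 and 0.140 in 18 pairs, 1 of them over 0.1, so the numbers were not used to pair libraries. No pair of replicates was a duplicate within sampling noise. RefSeq gene order and promoters came from GRCr8, in which 70 of the 71 symbols were listed and 56 had a promoter entry, and no coordinate of the authors' build is given. Alternatives were other scalings, filters, DESeq2 1.42.0, 6 libraries, a replicate block, halved counts, limma 3.58.1 on log2(normalised signal + 1) and leaving out each library.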

Additional observations from a re-analysis of the deposited data

How the results depend on the processing

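Most values depended little on the processing, and the filter on low counts moved the counts of genes most. With a mean of at least 200 counts per library required, 6 cadherin and protocadherin genes changed in RBFOX2 knockdown and 7 in QKI knockdown, 17 and 20 passed the adjusted p, and 2 changed in RBFOX2 against RBPMS, 2 in QKI against RBPMS and 4 in QKI against RBFOX2 knockdown, since fewer of the members were tested. RBFOX2 against RBPMS knockdown gave 4 on halved counts and 5 with limma on the normalised table, and the cause was not tested. A limit of 2 CPM left 18 members, fewer by construction. Leaving out single libraries gave 4 to 5 changed genes in RBPMS, 13 to 17 in RBFOX2 and 21 to 22 in QKI knockdown, and 22 to 24, 27 to 32 and 35 to 40 past the adjusted p. With all libraries the counts were 4, 17 and 24 changed, and 25, 32 and 40 past the adjusted p. The 24 changed in QKI and the 25 past the adjusted p in RBPMS knockdown were thus not reached without a library. Between knockdowns, leaving out single libraries gave 6 to 8 (RBFOX2 against RBPMS), 14 to 18 (QKI against RBPMS) and 17 to 20 (QKI against RBFOX2), and 28 to 29 members at 1 CPM or more. Where 1 group was left with 2 libraries, the fit pooled the spread over all groups. Library totals moved the median of all genes by up to 0.130 (QKI against RBPMS).

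The value of Cdh1 in RBPMS knockdown, which did not pass the test, was −0.0095 with library totals and −0.022 on the normalised table, and −0.21 to 0.29 without single libraries. Other values near 0 that turned without single libraries ranged from −0.030 to 0.12 for Pcdh18, −0.14 to 0.039 for Pcdhga7 and −0.25 to 1.33 for Pcdhga5 in RBFOX2 knockdown, and from −0.055 to 0.16 for Pcdhgb8 in QKI knockdown. The fall of Pcdhgc3 in RBFOX2 knockdown was −0.21 on the normalised table (adjusted p 0.0904 with limma). Depth limits the members under 1 CPM, whose folds rest on few counts.

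The replicate numbers share only a label. A fit with the replicate number as a block gave 4, 16 and 23 changed genes in RBPMS, RBFOX2 and QKI knockdown, 24, 31 and 39 past the adjusted p, and 6, 16 and 18 between knockdowns (RBFOX2 against RBPMS, QKI against RBPMS, QKI against RBFOX2). Of the 12 libraries, 2 correlated best with their own number.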
